A study of Mus musculus with 12 samples.

Results

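Male germ cells replace several housekeeping enzymes of energy metabolism with isoenzymes of their own, and 6 genes of this kind were followed here through MIWI immunoprecipitates (IP) and their input RNA. They are Ldhc, Pgk2, Pdha2, Gapdhs, Aldoart1 and Hk1, taken by their Ensembl gene IDs from the deposited table, which lists 20345 genes. All 6 were found, and all 6 were among the 12246 genes that reached 1 RPKM in 2 or more columns, called kept genes below. RPKM divides a gene's reads by its length in kilobases and by the column's reads in units of 1000000. The rule that names them uses no measured value, but the members were chosen with earlier results of these data known.

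The RNA came from mouse late spermatocytes of 3 genotypes and was depleted of ribosomal RNA. Miwi +/- animals carry 1 intact copy of Miwi, Miwi ADH/- animals carry the ADH allele as their only copy, and Miwi -/- animals carry none, so no group here has a full pair of intact copies. Miwi encodes a PIWI protein that binds pachytene piRNAs. The ADH allele is known for an altered catalytic triad, the site that cuts target RNA. The labels give 12 samples, 2 for each genotype of IP and of input, and the deposited table gives 1 column for each of the 6 groups. The labels state no age or strain here, nor how the late spermatocytes were obtained. The Miwi -/- IP holds no target protein and serves as background of the antibody. With single columns there is no replicate spread and no p-value, and every interval below is a 95% interval for counting error only.

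The isoenzymes have well-known roles. Meiotic and post-meiotic germ cells feed largely on lactate and pyruvate, while mouse sperm depend on glycolysis in the tail. Ldhc encodes the testis lactate dehydrogenase, which interconverts lactate and pyruvate. Pgk2 encodes the testis phosphoglycerate kinase and Pdha2 the testis E1 alpha subunit of pyruvate dehydrogenase, the entry of pyruvate into the citric acid cycle. Both are autosomal retrogene copies of X-linked genes that fall silent in meiosis. Gapdhs encodes the sperm glyceraldehyde-3-phosphate dehydrogenase anchored in the fibrous sheath of the tail. Aldoart1 is a retrogene of aldolase A, the enzyme that splits fructose bisphosphate. Hk1 encodes hexokinase 1. Germ cells use transcripts of it with their own first exons, and the single row of the gene does not separate transcripts. Ldhc, Pgk2 and Pdha2 are transcribed from the spermatocyte stage, and Gapdhs in spermatids. Aldoart1 was taken as spermatid-started too, with less certainty, and Hk1 was put in neither class.

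The promoter sequences of 3 isoenzymes are shown because the inputs separated them. Ldhc and Pgk2 were near their Miwi +/- level in the Miwi -/- input, and Gapdhs was far below it. Each run is the 250 bases before the annotated start, 5′ to 3′ in the direction of transcription, from RefSeq on build GRCm38.p6. RefSeq gave a window for 5 of the 6 genes, all but Aldoart1. In Ldhc (chr7:46861013-46861262, plus strand) capitals mark TGACG, the core of a cAMP response element. In Pgk2 (chr17:40208610-40208859, minus strand) capitals mark CCAAT. In Gapdhs (chr7:30743682-30743931, minus strand) capitals mark TGANNTCA, the palindromic frame of the same element with any 2 middle bases.
Ldhc: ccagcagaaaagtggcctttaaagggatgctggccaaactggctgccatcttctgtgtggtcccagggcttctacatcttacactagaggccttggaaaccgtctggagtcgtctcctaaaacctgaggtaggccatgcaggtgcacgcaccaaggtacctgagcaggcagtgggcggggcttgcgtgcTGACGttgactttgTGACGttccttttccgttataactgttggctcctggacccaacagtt
Pgk2: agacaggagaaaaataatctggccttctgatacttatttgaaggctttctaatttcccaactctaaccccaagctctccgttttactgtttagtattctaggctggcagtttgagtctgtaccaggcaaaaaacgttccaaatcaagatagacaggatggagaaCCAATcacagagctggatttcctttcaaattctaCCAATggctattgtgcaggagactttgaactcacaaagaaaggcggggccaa
Gapdhs: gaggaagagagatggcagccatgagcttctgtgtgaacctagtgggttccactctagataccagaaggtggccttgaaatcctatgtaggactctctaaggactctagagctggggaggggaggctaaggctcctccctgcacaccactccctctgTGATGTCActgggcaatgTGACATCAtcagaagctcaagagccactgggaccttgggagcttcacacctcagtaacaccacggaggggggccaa

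Both strands were searched for the core TGACG and the frame TGANNTCA, then for the boxes CCAAT, known as the CAAT box, GGGCGG, known as the GC box, and TATAAA, known as the TATA box. These motifs were chosen with the sequences in view. TGACG and TGANNTCA can overlap, since a complete response element holds both. Ldhc had TGACG at 61 and 47 bases before the start and GGGCGG at 78. TGACG was present in 17.8% of 32851 such windows of all genes, and GGGCGG in 32.7%. Gapdhs had TGANNTCA at 94 and 76 bases before the start, a frame present in 11.9% of windows. Its second RefSeq window, from another start, held the frame at 70 and 52 bases. Pgk2 had CCAAT at 86 and 52 bases, present in 33.8% of windows, and TGANNTCA at 27 bases. TATAAA, present in 12.4% of windows, was in none of the 3 sequences shown. The Pdha2 window, not shown, had TATAAA at 44 bases and no other of these motifs. The first of the Hk1 windows had TGANNTCA at 52 bases. The second windows of Ldhc and Hk1 held none of the 5 motifs. These are matches of letters, not measured binding.

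Read totals, which follow from the steps of the RPKM values, were 5.49 to 7.49 times 1000000 reads for the inputs and 4.17 to 10.6 times 1000000 for the IPs, with the Miwi -/- IP the shallowest column. The median difference between IP and input over the kept genes, on the log2(RPKM + 1) scale, stood at -0.77 for Miwi +/-, -0.41 for Miwi ADH/- and -1.37 for Miwi -/-. IP values are therefore read against these medians. The table pairs no ID with a gene name. The level of the targeted gene, the germ cell and somatic marker lists and the other genes of glycolysis and pyruvate use were not analysed here for that reason, so the labelled cell type was not checked against markers.

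Ldhc was the dominant isoenzyme transcript in all 6 columns. In the inputs Ldhc (ENSMUSG00000030851) stood at 3539.7 RPKM in Miwi +/-, at 4658 in Miwi ADH/- and at 3974 in Miwi -/-, which made it the 4th, 4th and 3rd highest of all 20345 genes. In the IPs it stood at 936, 1412 and 491 RPKM, in the same order. It held 93.0% to 96.1% of the summed RPKM of the 6 isoenzymes in the inputs and 90.1% to 94.6% in the IPs. Ldhc lies beside other lactate dehydrogenase genes of similar sequence, and the 3 retrogenes among the members resemble their parents. How reads shared between such copies were counted is not stated, so these levels are uncertain to that extent.

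The other members followed at much lower levels, and their order changed with the genotype. In the Miwi +/- input Hk1 (ENSMUSG00000037012) had 121 RPKM, with an interval of 114 to 128. Pgk2 (ENSMUSG00000031233) had 79.8 (70.0 to 90.6) there and Pdha2 (ENSMUSG00000047674) 53.2 (49.8 to 56.7). Gapdhs (ENSMUSG00000061099) had 7.99 (6.36 to 9.90) and Aldoart1 (ENSMUSG00000059343) 2.79 (1.99 to 3.80). No 2 neighbours in this order had overlapping counting intervals. In the Miwi ADH/- input Pgk2, at 94.3 RPKM (81.9 to 108), and Hk1, at 87.7 (81.2 to 94.5), overlapped. In the Miwi -/- input Pgk2, at 73.2 (63.6 to 83.9), stood above Hk1, at 51.4 (47.0 to 56.0). Gapdhs, at 0.508 (0.165 to 1.18), and Aldoart1, at 0.221 (0.0455 to 0.645), overlapped there at the bottom. Levels of different genes depend on the lengths the authors used. For Pgk2 the steps gave a length of 398 bases, and RefSeq's gene spans 1592, which is 4 times as long, so its reads are given below as the smallest whole numbers and may be 4 times as many. For Pdha2 the read totals were set so that its length equals the RefSeq span of 2352 bases, and the steps then gave 1387.0 bases for Gapdhs, 1914.0 for Aldoart1, 1003.3 for Ldhc and 1417.1 for Hk1. The last 2 are not whole, so the read totals are approximate.

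**Figure D1:**
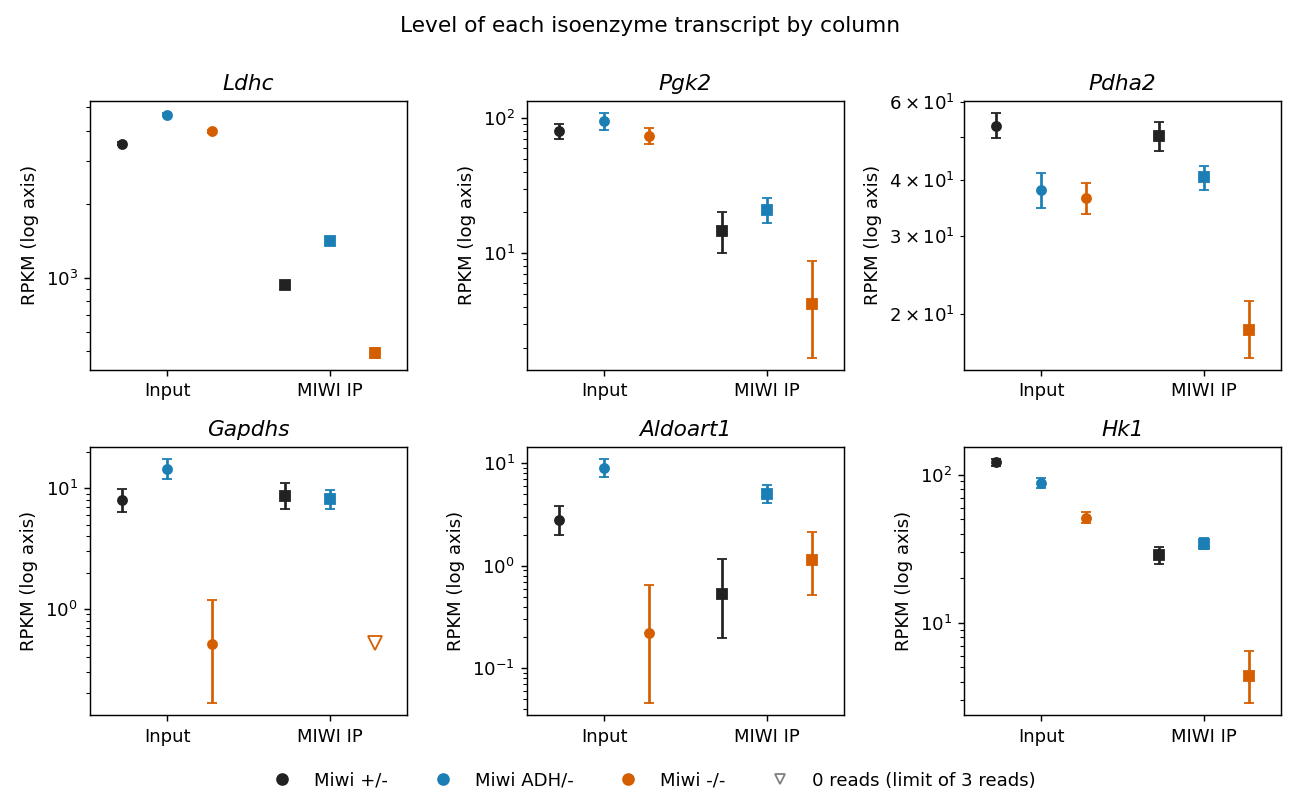
RPKM of the 6 isoenzyme transcripts on log axes, with a scale of its own for each gene; circles are inputs, squares are IPs, colours are genotypes, and bars are 95% intervals for counting error (Ldhc bars are smaller than the symbols). In the Miwi -/- columns Gapdhs had 0.508 RPKM in the input and 0 reads in the IP, drawn as an open triangle at the value of 3 reads, 0.518 RPKM.

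The comparison of the inputs asks how the RNA of the starting cells differed between genotypes. In Miwi -/- the members taken as spermatid-started were far lower than in Miwi +/-, while those started in spermatocytes were within 2-fold. Gapdhs, the tail-anchored glycolytic enzyme, had 5 reads in the Miwi -/- input against 83 in Miwi +/-. That is 0.508 against 7.99 RPKM, 15.7-fold lower with an interval of 6.48 to 49.7, and a log2(RPKM + 1) difference of -2.58. Only 2.33% of the kept genes had a lower difference. In such bulk RNA, fewer cells of a type and less RNA per cell cannot be told apart. Aldoart1 had 3 reads against 40, or 0.221 against 2.79 RPKM, 12.6-fold lower (4.03 to 63.9). Its difference of -1.63 was above that of 5.30% of the kept genes.

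Hk1, the first step of glycolysis, was the third member at least 2-fold lower in Miwi -/-. It had 51.4 RPKM against 121 in Miwi +/-, 2.35-fold lower (2.12 to 2.61), from 517 and 1283 reads. Pdha2 was lower by a smaller factor, at 36.5 against 53.2 RPKM, a ratio of 0.686 (0.618 to 0.760). Pgk2, at 73.2 against 79.8, had a ratio of 0.917 (0.758 to 1.11), and its interval holds equality. Ldhc was slightly higher, at 3974 against 3539.7 RPKM, a ratio of 1.12 (1.10 to 1.14). In all, 3 of the 6 members were at least 2-fold lower in Miwi -/- and 0 higher, where 10.6% of the kept genes were lower and 4.47% higher. The median difference of the members was -0.88, against -0.02 for the kept genes. By class, the mean difference was -2.11 for the 2 spermatid-started members (-2.58 and -1.63) and -0.16 for the 3 spermatocyte-started ones (-0.53 to 0.17). A class of 2 or 3 genes carries no test.

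In Miwi ADH/-, where the only copy is catalytically altered, the same spermatid-started transcripts lay on the other side of Miwi +/-. Aldoart1 had 9.04 RPKM in the Miwi ADH/- input against 2.79, from 95 and 40 reads, which is 3.24-fold higher (2.22 to 4.82), with a log2 difference of 1.41. Gapdhs had 14.6 against 7.99 RPKM, from 111 and 83 reads, 1.83-fold higher (1.36 to 2.46), with a log2 difference of 0.79. The differences of Aldoart1 and Gapdhs were above those of 96.0% and 89.0% of the kept genes. The Miwi -/- value was the lowest and the Miwi ADH/- value the highest of the 3 inputs for both genes. Pgk2, taken as spermatocyte-started, had the same order in a narrower range, from 73.2 to 94.3 RPKM. The share of kept genes with this order was not counted.

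Ldhc was 1.32-fold higher (1.29 to 1.34) in the Miwi ADH/- input than in Miwi +/-. For Pgk2 the ratio was 1.18 (0.976 to 1.43), and with 4 times the reads the interval would be 1.07 to 1.30 and no longer hold equality. Pdha2 and Hk1 were lower, with ratios of 0.714 (0.639 to 0.797) and 0.726 (0.660 to 0.797). Pdha2 and Hk1 were thus below Miwi +/- in both mutant inputs, and Ldhc was above it in both. These 2 comparisons share the Miwi +/- column. Aldoart1 was the 1 member at least 2-fold higher in Miwi ADH/- and 0 were lower, where 7.80% of the kept genes were higher and 7.42% lower. Relative to the median difference of -0.16, 10.4% were higher and 4.46% lower, and Aldoart1 was again the only member at least 2-fold apart. The members' median difference was 0.32. The class means were 1.10 for the spermatid-started members (0.79 and 1.41) and 0.05 for the spermatocyte-started ones (-0.48 to 0.40).

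Set against each other, the mutant inputs were furthest apart in the same pair of genes. Gapdhs was 28.7-fold higher (11.9 to 90.2) in Miwi ADH/- than in Miwi -/-, and Aldoart1, with 3 reads in Miwi -/-, 41.0-fold (13.6 to 202). Their log2 differences, 3.37 and 3.04, were above those of 97.9% and 97.1% of the kept genes. Hk1 was 1.71-fold higher (1.52 to 1.92), Ldhc had a ratio of 1.17 (1.15 to 1.19), Pgk2 of 1.29 (1.06 to 1.57) and Pdha2 of 1.04 (0.923 to 1.17). So 2 of 6 members were at least 2-fold higher and 0 lower, where 12.6% of the kept genes were higher and 6.54% lower. Relative to the median difference of -0.18 these shares were 14.8% and 3.70%. The class means were 3.20 for the spermatid-started and 0.22 for the spermatocyte-started members.

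The balance between members within a column restates the same input values in a form that column scaling does not change, since both levels come from the same column. Gapdhs stood at 0.10 of the Pgk2 level in the Miwi +/- input, 0.155 in Miwi ADH/- and 0.00693 in Miwi -/-. Aldoart1 stood at 0.0349, 0.0959 and 0.00301 of it, in the same order. Gapdhs stood at 2.86, 1.61 and 2.30 times the Aldoart1 level, a narrower range but not a constant one, and the last value comes from 5 and 3 reads. Ldhc stood at 44.3, 49.4 and 54.3 times the Pgk2 level, a narrow range, whereas Ldhc over Hk1 went from 29.3 in Miwi +/- to 53.1 in Miwi ADH/- and 77.4 in Miwi -/-.

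**Figure D2:**
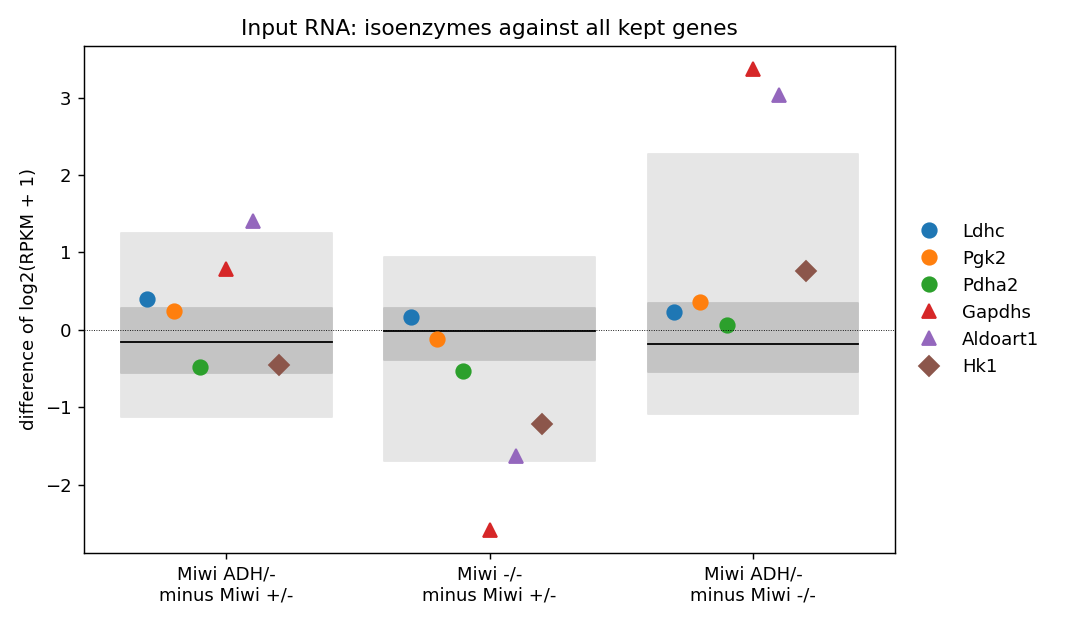
Difference of log2(RPKM + 1) between inputs for the 6 isoenzymes (circles, spermatocyte-started; triangles, spermatid-started; diamond, Hk1) over all 12246 kept genes, drawn as bands from the 5th to the 95th percentile (light) and the 25th to the 75th (dark) with the median as a line. Gapdhs, at -2.58, lies below the light band for Miwi -/- minus Miwi +/-, and both triangles, at 3.37 and 3.04, lie above it for Miwi ADH/- minus Miwi -/-.

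The comparison of IP with input asks how each transcript was recovered with MIWI. In Miwi +/- the 6 isoenzymes fell into a poorly recovered set and a pair near their input level. Pdha2 had 50.3 RPKM in the IP against 53.2 in the input, a ratio of 0.946 (0.857 to 1.05) from 697 and 937 reads. Gapdhs had 8.69 against 7.99 RPKM, a ratio of 1.09 (0.781 to 1.51) from 71 and 83 reads. Their log2 differences of -0.08 and 0.11 were above those of 75.3% and 81.4% of the kept genes.

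Ldhc, Pgk2 and Hk1 were recovered less than most genes in Miwi +/-. Ldhc had 936 RPKM against 3539.7, a ratio of 0.264 (0.257 to 0.272), and Hk1 28.5 against 121, a ratio of 0.236 (0.205 to 0.271). Pgk2 had 14.5 RPKM against 79.8, a ratio of 0.182 (0.123 to 0.261) from 34 and 238 reads, and only 5.91% of the kept genes had a lower difference. Aldoart1 had 0.532 against 2.79 RPKM, a ratio of 0.191 (0.0661 to 0.453) that rests on 6 reads in the IP. In all, 4 of 6 members were at least 2-fold lower in the IP and 0 higher, where 40.6% of the kept genes were lower and 4.24% higher. Relative to the median, 15.5% of the kept genes were lower and 15.4% higher, and 3 members (Ldhc, Pgk2 and Hk1) were still at least 2-fold lower, at -1.15, -1.61 and -1.28.

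In Miwi ADH/- Pdha2 was again at its input level and Pgk2 again had the lowest ratio. Pdha2 had 40.6 RPKM in the IP against 38.0 in the input, a ratio of 1.07 (0.959 to 1.19) from 1010 and 490 reads. Gapdhs, at 8.18 against 14.6, had a ratio of 0.561 (0.430 to 0.733), and Aldoart1, at 5.04 against 9.04, one of 0.557 (0.417 to 0.744), which are close to each other. Ldhc had 1412 RPKM against 4658, a ratio of 0.303 (0.297 to 0.309). Pgk2, at 20.9 against 94.3 RPKM, had 0.222 (0.171 to 0.286), and Hk1, at 34.3 against 87.7, had 0.392 (0.349 to 0.440). Here 3 of 6 members were at least 2-fold lower in the IP and 0 higher, where 25.0% of the kept genes were lower and 4.83% higher, or 13.4% and 12.0% relative to the median. On that footing 2 members, Ldhc and Pgk2, were still at least 2-fold lower, and Hk1 was at -0.92.

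The Miwi -/- control, with no MIWI to bind, showed the Miwi +/- order of ratios for Ldhc, Pgk2, Pdha2 and Hk1. In both genotypes the counting interval of Hk1 overlapped those of Ldhc and Pgk2, so only the place of Pdha2 is clear. With 4 times the reads, the Pgk2 interval would be 0.151 to 0.218 in Miwi +/- and 0.0380 to 0.0838 in Miwi -/-. Pgk2 would then lie below Ldhc in both, while Hk1 would still overlap the pair. The Miwi ADH/- order differed, with Hk1, at 0.392, above Ldhc, at 0.303. Pdha2 had 18.4 RPKM against 36.5, a ratio of 0.506 (0.426 to 0.598), which is again the highest of the 4. Ldhc had 491 against 3974, a ratio of 0.123 (0.118 to 0.129), and Hk1 4.40 against 51.4, a ratio of 0.0856 (0.0554 to 0.127). Pgk2 had 4.22 against 73.2, a ratio of 0.0576 (0.0229 to 0.121) from 7 IP reads. So Pdha2 stood above and Pgk2 below the median gene in the IP of every genotype, the control included: relative to the median, Pdha2 lay at 0.69, 0.50 and 0.43 in Miwi +/-, ADH/- and -/-, and Pgk2 at -1.61, -1.71 and -2.46.

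For the spermatid-started pair the control columns were close to empty. Gapdhs had 0 reads in the Miwi -/- IP, where 3 reads would be worth 0.518 RPKM, and 5 reads (0.508 RPKM) in the input, so no fold is given. Aldoart1 went the other way from its other IPs, with 9 reads (1.13 RPKM) in the IP and 3 (0.221 RPKM) in the input, a ratio of 5.11 with an interval of 1.27 to 29.3. Its Miwi -/- IP level of 1.13 RPKM (0.515 to 2.14) overlapped the Miwi +/- IP level of 0.532 (0.195 to 1.16). In the control 3 of 6 members were at least 2-fold lower in the IP and 0 higher, where 60.9% of the kept genes were lower and 3.67% higher. Relative to the median these shares were 25.0% and 23.6%, and Aldoart1, at 2.17, counted as higher. With a pseudocount of 0.10, median-of-ratios scaling and equal summed RPKM it was higher too, where 5.68%, 20.6% and 16.7% of kept genes were.

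**Figure D3:**
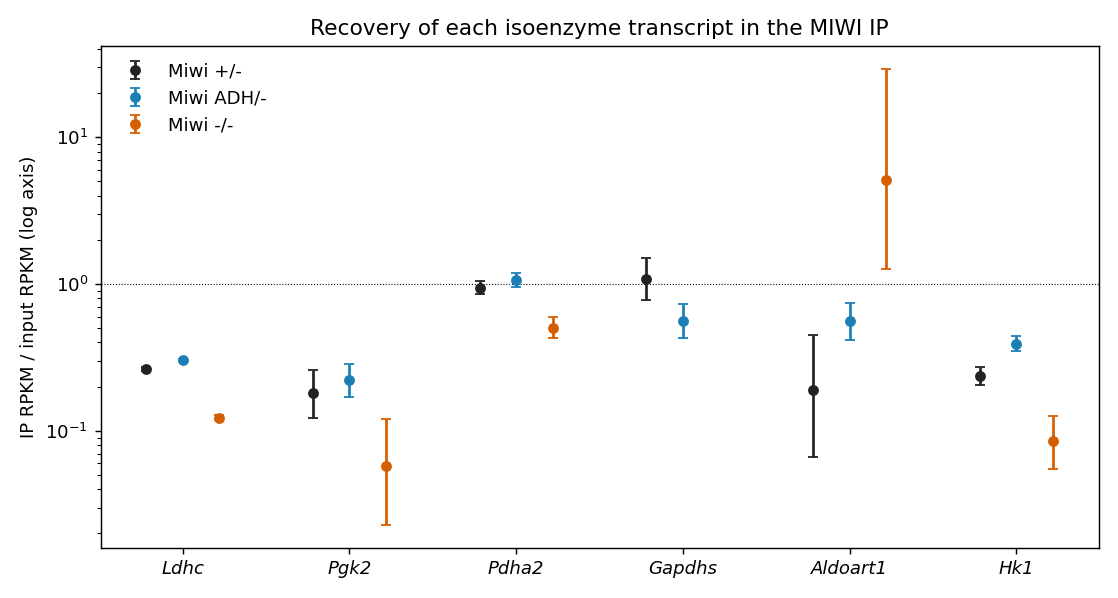
Ratio of IP RPKM to input RPKM for each isoenzyme and genotype on a log axis, with 95% intervals for counting error; the dotted line marks equality, and Gapdhs in Miwi -/-, with 0 IP reads, has no point. Of the points drawn, Pdha2 has the highest ratio in Miwi ADH/- (1.07) and Pgk2 the lowest in all 3 genotypes. The Pgk2 interval overlaps those of other members in Miwi +/- and Miwi -/-. The Aldoart1 point of Miwi -/- (5.11) rests on 9 and 3 reads.

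IP enrichment over the control, the IP-minus-input difference of a genotype less that of Miwi -/-, sets recovery with MIWI against recovery without it. In Miwi +/- it was 1.10 for Ldhc, 1.45 for Pgk2, 0.87 for Pdha2 and 1.23 for Hk1, against a median of 0.67 over the kept genes, though with median-of-ratios scaling Pdha2 turned negative, at -0.14, and Ldhc was at 0.05. It was 0.70 for Gapdhs, which rests on control columns that are close to empty, and -2.11 for Aldoart1. The Aldoart1 value rests on 3 reads in the control input, 9 in the control IP and 6 in the Miwi +/- IP. Thus 3 of 6 members were at least 2-fold higher and 1 lower, where 39.3% of the kept genes were higher and 9.56% lower. With median-of-ratios scaling and with equal summed RPKM only Gapdhs was higher, where 26.4% and 31.4% of the kept genes were. Relative to the median, 21.4% of the kept genes were higher and 20.1% lower, and no member was higher: Ldhc, Pgk2, Pdha2 and Hk1 then lay at 0.43, 0.78, 0.20 and 0.56, with Pgk2 resting on 7 control IP reads.

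In Miwi ADH/- these 4 members lay above 1. The enrichment over the control was 1.29 for Ldhc, 1.71 for Pgk2, 1.04 for Pdha2 and 1.95 for Hk1, against a median of 1.06, though Ldhc and Pdha2 turned negative with median-of-ratios scaling, at -0.20 and -0.40. It was -1.54 for Aldoart1 and -0.17 for Gapdhs, with the same control reads behind them, and Gapdhs turned positive with a pseudocount of 0.10 (1.78), with median-of-ratios scaling (0.05) and with equal summed RPKM (0.27). Here 4 of 6 members were at least 2-fold higher and 1 lower, where 51.9% of the kept genes were higher and 7.30% lower, and relative to the median 20.1% and 21.7%, with 0 members higher and 2 lower (Gapdhs and Aldoart1, at -1.23 and -2.59). With median-of-ratios scaling 0 members were higher, where 27.0% of the kept genes were. With equal summed RPKM only Hk1 was higher, where 35.2% of the kept genes were. Both enrichments share the Miwi -/- columns.

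Between Miwi ADH/- and Miwi +/- the enrichment of the isoenzymes differed by less than 1 on the log2(RPKM + 1) scale for all 6. That scale understates Aldoart1, whose IP-to-input ratios were 0.557 and 0.191, the second from 6 IP reads, and whose difference was 1.36 with a pseudocount of 0.10. The enrichment difference was 0.20 for Ldhc, 0.26 for Pgk2, 0.17 for Pdha2, 0.57 for Aldoart1, 0.72 for Hk1 and -0.87 for Gapdhs, and the values of Ldhc, Pgk2 and Pdha2 turned negative under each of 3 other scalings. So 0 of 6 members were at least 2-fold higher and 0 lower, where 20.5% of the kept genes were higher and 7.56% lower. Relative to the median of 0.38 these shares were 10.6% and 13.4%, and Gapdhs, at -1.25, was then at least 2-fold lower, with 9.11% of the kept genes below it. Gapdhs was also 2-fold lower with median-of-ratios scaling and with equal summed RPKM, where 11.8% and 10.8% of the kept genes were. With a pseudocount of 0.10 Aldoart1 was at least 2-fold higher, where 28.8% of the kept genes were. The Gapdhs IP levels themselves were 8.69 RPKM (6.79 to 11.0) and 8.18 (6.78 to 9.78), with overlapping intervals, and its inputs were 7.99 and 14.6 RPKM.

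The likeness of patterns over the 6 columns was measured as the distance between log2(RPKM + 1) values centred on each gene's mean. Ldhc and Pgk2 were closest among the members, at 0.87, with 1.89% of the kept genes nearer to Pgk2 than Ldhc was and 4.0% nearer to Ldhc than Pgk2 was. Hk1 and Pgk2 lay 1.23 apart. Gapdhs and Aldoart1 lay 2.74 apart, with 11.2% of the kept genes nearer to Gapdhs and 30.2% nearer to Aldoart1, and Aldoart1 was equally far, 2.74, from Pdha2. Pdha2 lay at least 2.51 from every other member. In the IPs of Miwi +/- Gapdhs stood at 16.3 times the Aldoart1 level, against 2.86 times in the input. Outside the members, the gene most like Ldhc was ENSMUSG00000021598, at 0.15, and that most like Pgk2 was ENSMUSG00000018567, at 0.18. The gene most like Gapdhs was ENSMUSG00000048655, at 0.46, with 10.7, 21.6 and 0.950 RPKM in the Miwi +/-, ADH/- and -/- inputs. For Aldoart1 it was ENSMUSG00000028332, at 0.60, with 1.20, 7.86 and 0 RPKM there. With 12240 genes and 6 values each, near neighbours are common, and these distances are a description.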

How the data were processed

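Ribosomal RNA-depleted libraries of MIWI IP and input were measured in 12 samples. The authors deposited RPKM values, per the file headers, in 1 column per group. The headers write the unit for the Miwi +/- columns only, and it was assumed for the others. TopHat, Bowtie and the mm9 build are named in the submitters' processing notes, and the counting tool, annotation, any pooling and the treatment of shared reads were not given in the sources used here. Members and lists were chosen with earlier results of these data known. All members are named, and each one's nearest other gene by pattern, limited to 4 IDs.

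Within a gene, RPKM values step in whole reads (within 0.002 reads plus 1e-07 per read), which gave relative depths, the smallest whole reads per member and, with Pdha2 at its RefSeq length, read totals. Simulated data with whole lengths were used to check the depths, the reads up to a common whole factor, and the 2-fold count. The true reads of a gene may be a whole multiple of those given. Differences are of log2(RPKM + 1), with a pseudocount of 1, and genes at least 2-fold apart were counted, which is no test. Changes of low genes are understated on this scale. Ratios have exact Clopper-Pearson intervals conditional on the summed reads, and levels exact Poisson intervals. As reads copied by PCR are not separate molecules, both describe counting error alone. The table's IDs matched 0 entries of the reference tables, so the planned lists and the ratio of each isoenzyme to its housekeeping counterpart were not analysed here. Python 3.11.15, numpy 2.4.6, pandas 2.3.3 and scipy 1.17.1 were used. Other pseudocounts, filters and scalings were tried.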

Additional observations from a re-analysis of the deposited data

Results flagged for a closer look

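Gapdhs and Aldoart1 lay on opposite sides of Miwi +/- in the mutant inputs, with counting intervals that exclude equality on both sides. On the log2(RPKM + 1) scale Gapdhs differed by 0.79 in Miwi ADH/- and by -2.58 in Miwi -/-, and Aldoart1 by 1.41 and -1.63. Both comparisons share the Miwi +/- column, and the share of kept genes meeting this rule was not counted. The difference between the mutants was not tested across replicates.

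Aldoart1 also differed in direction between the IPs: its IP-minus-input value was -1.31 in Miwi +/- and -0.73 in Miwi ADH/-, against 0.80 in Miwi -/-, where it rests on 9 and 3 reads. This was not tested either, and the share of kept genes with such a change of direction was not counted.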

How the results depend on the processing

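Of the counts of members at least 2-fold apart and the class differences, 81 values under the other settings stayed the same or within 1.5 times and 15 moved. In Miwi -/-, members higher in the IP went from 0 to 1 (Aldoart1) with a pseudocount of 0.10, relative to the median difference, with median-of-ratios scaling and with equal summed RPKM. Members enriched in Miwi +/- over Miwi -/- went from 3 to 0 relative to the median and to 1 with either other scaling. Those enriched in Miwi ADH/- over Miwi -/- went from 4 to 0 relative to the median and with median-of-ratios scaling and to 1 with equal summed RPKM, and those depleted from 1 to 2 relative to the median. Between Miwi ADH/- and Miwi +/-, 1 member was higher (28.8% of kept genes) with a pseudocount of 0.10, and 1 lower (10.8% to 13.4%) under each of the 3 scalings, against 0. Enrichments of Miwi ADH/- over Miwi -/- changed sign for 3 genes: Ldhc to -0.20 with median-of-ratios scaling, Pdha2 to -0.02 relative to the median and -0.40 with median-of-ratios scaling, and Gapdhs from -0.17 to 1.78 with a pseudocount of 0.10, 0.05 with median-of-ratios scaling and 0.27 with equal summed RPKM. That of Pdha2 in Miwi +/- over Miwi -/- turned to -0.14 with median-of-ratios scaling. The cause was not tested. Without Aldoart1 the spermatid-started less spermatocyte-started difference between inputs was 0.74 for Miwi ADH/- against Miwi +/- (1.05 with it), -2.41 for Miwi -/- against Miwi +/- (-1.94) and 3.15 for Miwi ADH/- against Miwi -/- (2.99). No member's difference between inputs changed sign under any setting.

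Counts of kept genes at least 2-fold apart moved further. With a pseudocount of 0.10, lower genes went from 909 to 1642 for Miwi ADH/- against Miwi +/- inputs and from 801 to 1506 for Miwi ADH/- against Miwi -/-, and higher ones from 547 to 977 for Miwi -/- against Miwi +/-. Genes higher in the IP went from 519 to 841, 591 to 991 and 449 to 695 in Miwi +/-, ADH/- and -/-, and genes lower in enrichment of Miwi ADH/- over Miwi +/- from 926 to 1523. Without the filter, those higher in the Miwi -/- IP became 730, and those lower in enrichment 1522 (from 894) for Miwi ADH/- over Miwi -/- and 1489 for Miwi ADH/- over Miwi +/-. With median-of-ratios scaling, the lower input counts for Miwi ADH/- became 346 and 363, the IP counts 1583 higher and 2086 (from 4976) lower in Miwi +/-, 1189 and 1740 (from 3057) in Miwi ADH/-, and 2518 and 3782 (from 7463) in Miwi -/-. Enrichment counts became 2357 lower (from 1171) for Miwi +/- over Miwi -/-, 3311 higher (from 6357) and 2395 lower for Miwi ADH/- over Miwi -/-, and 1437 higher (from 2509) and 1441 lower for Miwi ADH/- over Miwi +/-. With equal summed RPKM, the IP counts became 1792 higher and 2230 lower, 1674 and 1448, and 2040 and 4406, in the order of genotypes above, and the lower enrichment counts over Miwi -/- became 1859 and 1648.

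No replicate was left out, since each group has 1 column. No paired analysis was possible because the columns carry no replicate numbers. Depth limits Gapdhs and Aldoart1 in Miwi -/- most, with 0 to 9 reads a column. The ratios of isoenzymes to their counterparts were not run.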
